A study of Homo sapiens with 6 samples.

Results

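Thioredoxin, peroxiredoxins and sulfiredoxin form a chain of enzymes that removes hydrogen peroxide and repairs oxidised proteins. The group described here holds 10 genes chosen by name (TXN, TXNRD1, TXNIP, SRXN1 and PRDX1 to PRDX6) out of 17269 in the deposited table, and all 10 were found there. RNA was measured in HCT116, a colorectal carcinoma cell line of human origin, grown in RPMI1640 with fetal bovine serum. The 3 control libraries (shCtrl, listed with genotype WT) were compared with 3 libraries of cells carrying a short hairpin RNA against PRSS22, a trypsin-like serine protease (shPRSS22, listed as PRSS22 knockdown). Which hairpin was used, when it was introduced and whether the cells were 1 clone or a pool are not given in the sources used here. Nothing ties the replicates to separate cultures, so a p-value here reflects the spread among these libraries, which may be technical. In edgeR that spread is partly pooled over genes.

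Thioredoxin (TXN) reduces disulfides in other proteins and is itself reduced by thioredoxin reductase (TXNRD1), a selenium-containing enzyme that takes electrons from NADPH. Peroxiredoxins destroy peroxide with a reactive, so-called peroxidatic cysteine, and most of them are then returned to the reduced form by thioredoxin. In the typical 2-Cys peroxiredoxins (PRDX1 to PRDX4) a second, resolving cysteine of the partner subunit closes the disulfide, and a peroxidatic cysteine oxidised too far is repaired by sulfiredoxin (SRXN1). TXNIP binds thioredoxin and inhibits it. Several of these genes are known targets of the transcription factor NRF2 in many cell types.

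The chemistry that separates the members can be read in their coding sequences, shown here because the results below are ordered by these roles. Each line is a stretch of the GENCODE v29 coding sequence, 5′ to 3′. In the first 6 lines the capitals mark the codon of the peroxidatic cysteine, which a search of the translated sequences placed at codon 52 of PRDX1, 51 of PRDX2, 108 of PRDX3, 124 of PRDX4, 100 of PRDX5 and 47 of PRDX6.
PRDX1: taccctcttgacttcacctttgtgTGCccc
PRDX2: taccctctggacttcacttttgtgTGCccc
PRDX3: tatcctttggatttcacctttgtgTGTcct
PRDX4: tacccacttgatttcacatttgtgTGTcca
PRDX5: gttcctggggccttcacccctggaTGTtcc
PRDX6: caccctcgggactttaccccagtgTGCacc

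A second conserved stretch was found in PRDX1 to PRDX4, the 4 peroxiredoxins that sulfiredoxin repairs, and the same search gave no match in PRDX5 or PRDX6. The capitals mark the codon of the resolving cysteine, at codon 173 of PRDX1, 172 of PRDX2, 229 of PRDX3 and 245 of PRDX4.
PRDX1: catggggaagtgTGCccagctggctggaaa
PRDX2: catggggaagttTGTcccgctggctggaag
PRDX3: catggagaagtcTGCccagcgaactggaca
PRDX4: cacggagaagtcTGCcctgctggctggaaa

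In the next pair of lines, the capitals mark the first cysteine codon of the thioredoxin active site (codon 32 of TXN) and, in TXNRD1, an in-frame stop codon near the end of the reading frame (codon 498 of 499) that is read as selenocysteine.
TXN: gccacgtggTGTgggccttgcaaaatgatc
TXNRD1: agcatcctccaggctggctgcTGAggttaa

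Library totals ran from 14920523 to 15466647 estimated counts. PRSS22, the targeted gene, was at 9.86 ± 0.416 CPM in shCtrl and 2.95 ± 0.296 CPM in shPRSS22 (SD, n = 3), where CPM is counts per 1000000 of the TMM-scaled library, and its log2 fold change was -1.74. The marker levels and sums that follow are CPM of the unscaled library total. Of the 9 colorectal epithelial markers in the table, 6 had a mean of at least 1 CPM, among them KRT8 at 1421 and EPCAM at 345.9 CPM, whereas VIL1, CEACAM5 and LGALS4 had means of 0.499, 0.401 and 0.239 CPM. Of the 6, CDH1 was called higher in shPRSS22 (log2 fold change 0.15, edgeR adjusted p = 9.01e-04). Summed fibroblast markers came to 24.7 to 32.4 CPM in shCtrl and 28.8 to 35.3 in shPRSS22, nearly all of it COL1A1, with DCN and LUM below 0.1 CPM. Summed immune markers came to 14.4 to 15.8 and 16.2 to 19.3 CPM, nearly all of it CD68, with PTPRC at 0.0216 CPM. CD68 was called higher in shPRSS22 (log2 fold change 0.24, edgeR adjusted p = 0.0271), and the part of these markers in the results below was not tested. Summed endothelial markers were at most 2.28 CPM and CDH5 had no count.

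Of the 10 genes, 9 had enough counts to be tested: 4 were higher in shPRSS22 (TXNRD1, SRXN1, PRDX1 and TXN), 2 were lower (PRDX2 and PRDX6) and 3 did not pass (PRDX3, PRDX4 and PRDX5). A gene was called at an adjusted p under 0.05 in edgeR's quasi-likelihood test, adjusted over all 13104 tested genes. At that threshold 19.9% of all tested genes were higher and 19.3% lower, so a call by itself is common in this comparison and the sizes below matter more than the number of calls. The median log2 fold change was 0.05 over the 9 genes and -0.01 over all tested genes. The same 6 genes were those whose groups did not overlap, 4 of them higher (24.2% of all tested genes) and 2 lower (24.3%). TXNRD1 and SRXN1 were the members called higher with a rise of at least 2-fold, as were 0.725% of tested genes. The members were chosen with earlier results of these data known, so their shares and ranks among all tested genes are not independent evidence.

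**Figure D1:**
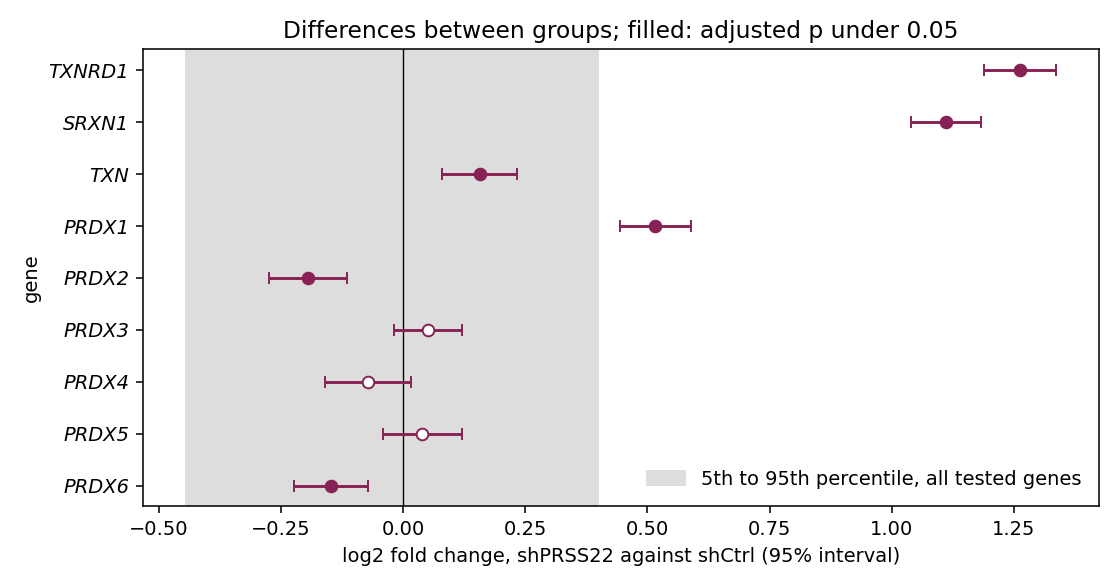
Log2 fold change of each tested gene (x axis, shPRSS22 against shCtrl) with its 95% interval, over the 5th to 95th percentile of all tested genes (grey band, -0.44 to 0.40); filled points passed the test. TXNRD1, SRXN1 and PRDX1 lie above the band and the other 6 lie inside it.

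The reductase showed the largest difference. TXNRD1 (Entrez 7296; chromosome 12 from 104215779 to 104350305, plus strand, GRCh38) was at 527.4, 542.7 and 540.9 CPM in shCtrl replicates 1 to 3 and at 1288, 1238 and 1339 CPM in shPRSS22 replicates 1 to 3. Every knockdown library was thus above every control library, and the lowest of them was more than double the highest control. The log2 fold change was 1.26 (SE 0.0358, 95% interval 1.19 to 1.34; edgeR adjusted p = 4.91e-23), a 2.40-fold difference that ranked 46 from the top among all tested genes.

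Thioredoxin itself, the substrate of that enzyme, differed far less. TXN (Entrez 7295; chromosome 9 from 110243811 to 110256640, minus strand) stood at 121.0, 125.1 and 123.8 CPM in shCtrl and 137.5, 142.6 and 132.2 CPM in shPRSS22. The groups did not overlap, but the highest control and the lowest knockdown library were close. Its log2 fold change was 0.16 (SE 0.0376, 95% interval 0.08 to 0.23; edgeR adjusted p = 0.00124), a rise of 11.4%, and 54.6% of tested genes had a smaller change in either direction.

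The ratio of the reductase to its substrate was therefore examined within each library, where library scaling cancels. On the deposited TPM, a measure per transcript length, there were 0.550, 0.560 and 0.564 TXNRD1 transcripts per TXN transcript in shCtrl and 1.20, 1.12 and 1.30 in shPRSS22. TXN was the more abundant transcript in each control library and TXNRD1 in each knockdown library. The log2 ratio of counts differed by 1.11 between groups (exact two-sided permutation test, p = 0.1, the smallest p that 3 against 3 libraries allow). This ratio follows from the fold changes of TXNRD1 and TXN given above and is not separate evidence.

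**Figure D2:**
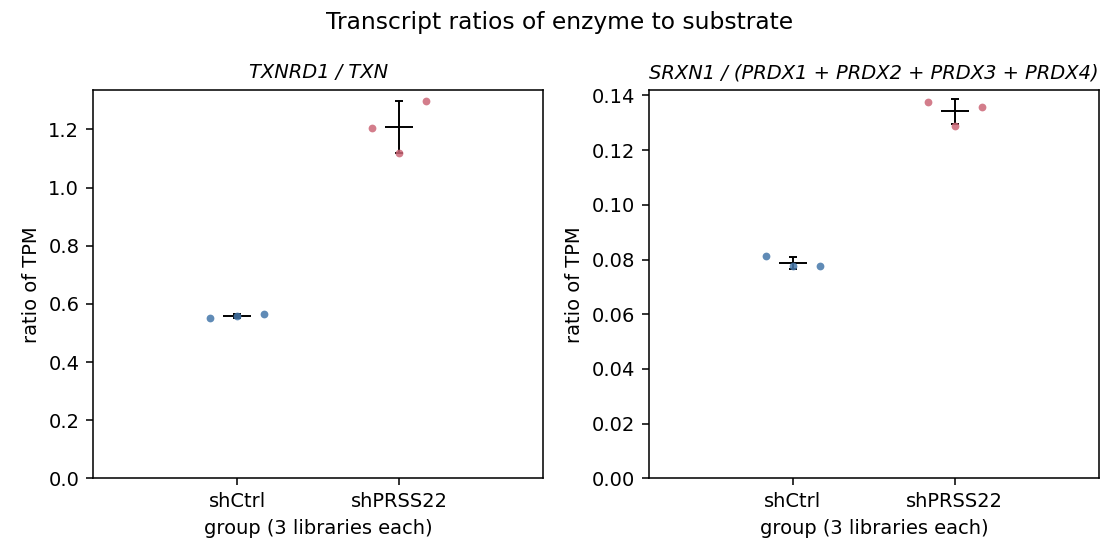
Ratio of TPM within each library for TXNRD1 to TXN (left) and SRXN1 to the sum of PRDX1 to PRDX4 (right); points are libraries, black marks the mean and SD of 3. The knockdown libraries lie above the controls in both panels, at 1.12 to 1.30 against 0.550 to 0.564 on the left.

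The third gene of this branch, the inhibitor TXNIP (Entrez 10628; chromosome 1 from 145992435 to 145996600, minus strand), was almost absent from the counts. It had 0 counts in each shCtrl library, 6 in shPRSS22 replicate 1 and 0 in shPRSS22 replicates 2 and 3, and it did not pass the filter on low counts. A count of 0 allows a level of up to 0.201 CPM (3 counts on the unscaled library total, counting error only) in the shallowest library. No fold is given at these levels. The authors' deposited table lists a log2 fold change of 3.40 for TXNIP with a q-value of 0.685. None of the 50-base stretches of its annotated transcripts was shared with another gene's transcript in GENCODE v29, and whether reads of TXNIP were lost in the authors' alignment was not tested.

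Sulfiredoxin rose nearly as far as the reductase. SRXN1 (Entrez 140809; chromosome 20 from 646615 to 653370, minus strand) was at 307.5, 304.1 and 310.7 CPM in shCtrl and 670.0, 634.3 and 688.9 CPM in shPRSS22. The control libraries lay within a few CPM of each other, and the knockdown libraries were all more than 2-fold above them. The log2 fold change was 1.11 (SE 0.0351, 95% interval 1.04 to 1.18; edgeR adjusted p = 6.80e-22), which ranked 72 from the top. GENCODE v29 annotates a same-strand gene, AL121758.1, that shares 2292 of the 2698 exon bases of SRXN1, so these reads cannot be assigned to SRXN1 alone from position. SRXN1 also shared 84.7% of its 50-base stretches with AL121758.1. That symbol is not a row of the deposited table.

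Of the peroxiredoxins that sulfiredoxin repairs, PRDX1 rose, PRDX2 fell, and the mitochondrial PRDX3 and the secretory-pathway PRDX4 did not pass the test. PRDX1 (Entrez 5052; chromosome 1 from 45511036 to 45523047, minus strand), an abundant cytosolic form, was at 715.5, 753.4 and 772.2 CPM in shCtrl and 1047, 1053 and 1105 CPM in shPRSS22. The groups were well apart. Its log2 fold change was 0.52 (SE 0.0359; edgeR adjusted p = 3.63e-13), a rise of 43.0%, and 93.7% of tested genes had a smaller change. PRDX1 was the member whose estimated counts carried decimals, meaning that some reads were divided between genes. It shared 0.434% of its 50-base stretches with PRDX1P1, a pseudogene, and 379 of its 1522 exon bases with MMACHC on the opposite strand. SRXN1, TXN and PRDX2 shared more of their 50-base stretches with other genes, at 84.7%, 3.34% and 2.15%. MMACHC was at 11.2 ± 1.32 CPM in shCtrl and 10.1 ± 0.952 CPM in shPRSS22 (SD, n = 3; log2 fold change -0.15, edgeR adjusted p = 0.283).

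PRDX2 (Entrez 7001; chromosome 19 from 12796820 to 12801859, minus strand), the other cytosolic 2-Cys form, was at 107.4, 110.1 and 105.5 CPM in shCtrl and 96.3, 93.3 and 92.6 CPM in shPRSS22. All knockdown libraries were below all controls. The log2 fold change was -0.20 (SE 0.0391; edgeR adjusted p = 1.69e-04), and 63.9% of tested genes had a smaller change in either direction. An antisense gene, AC018761.2, overlaps 296 of its 2093 exon bases, and without strand marking reads of the pair cannot be told apart.

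PRDX3 (Entrez 10935; chromosome 10 from 119167703 to 119178833, minus strand) was at 296.4, 303.1 and 322.3 CPM in shCtrl and 315.8, 323.0 and 315.8 CPM in shPRSS22, and the groups overlapped. Its log2 fold change of 0.05 had a 95% interval of -0.02 to 0.12 (edgeR adjusted p = 0.256). PRDX4 (Entrez 10549; chromosome X from 23664262 to 23686399, plus strand) was at 98.5, 107.4 and 107.4 CPM in shCtrl and 94.9, 103.7 and 99.5 CPM in shPRSS22, again with overlap. Its log2 fold change was -0.07, with an interval of -0.16 to 0.02 (edgeR adjusted p = 0.187). For both genes the interval does not reach the size of the rise in PRDX1.

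Of the peroxiredoxins outside the sulfiredoxin group, PRDX5 did not pass the test and PRDX6 fell. PRDX5 (Entrez 25824; chromosome 11 from 64318088 to 64321811, plus strand), an atypical form found in mitochondria, peroxisomes and cytosol, was at 177.7, 192.4 and 182.3 CPM in shCtrl and 181.0, 202.0 and 184.6 CPM in shPRSS22, and the groups overlapped (log2 fold change 0.04, 95% interval -0.04 to 0.12; edgeR adjusted p = 0.465). Without shPRSS22 replicate 2, its highest library, the log2 fold change was -0.0072. PRDX6 (Entrez 9588; chromosome 1 from 173477266 to 173488807, plus strand), the 1-Cys form, which is reduced through glutathione, was at 182.1, 178.1 and 176.2 CPM in shCtrl and 160.4, 170.4 and 153.3 CPM in shPRSS22. All knockdown libraries lay below the controls. It fell by 0.15 on the log2 scale (SE 0.0372; edgeR adjusted p = 0.00197), a percent change of -9.73%.

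**Figure D3:**
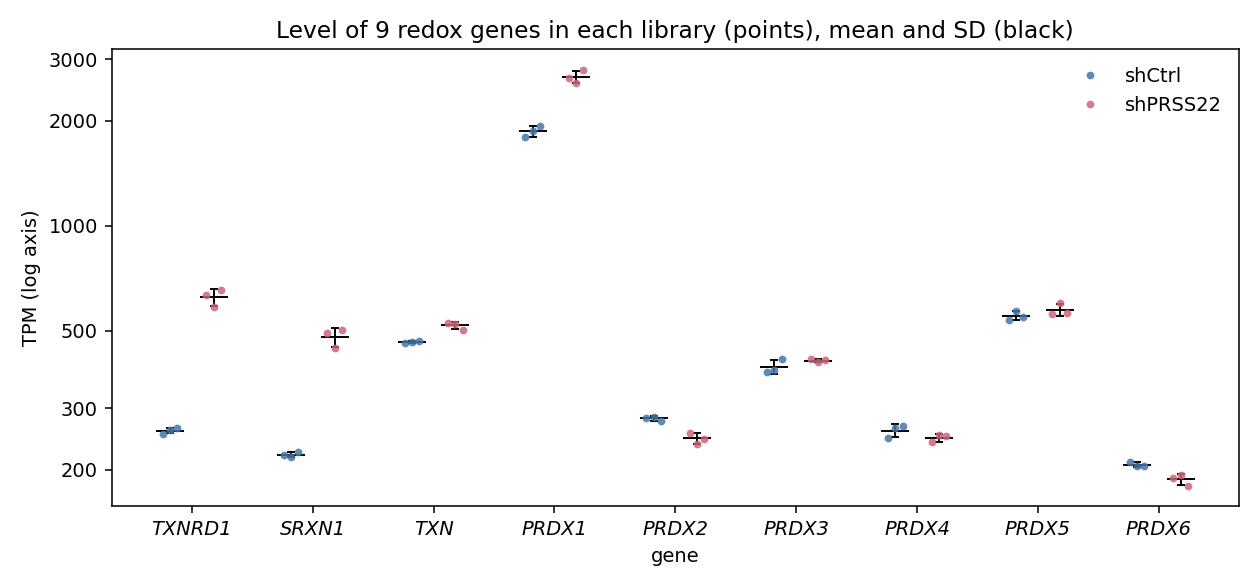
TPM of the 9 genes with counts in every library (log axis); each point is 1 library, black marks the mean and SD of 3. PRDX1 is the most abundant in both groups, and TXNRD1 and SRXN1 show the widest gap between groups.

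Per transcript length, the order of the members differed between the groups. In shCtrl the mean TPM ran from PRDX1 (1867) through PRDX5 (552.1), TXN (464.0), PRDX3 (394.6), PRDX2 (280.4), TXNRD1 (258.7), PRDX4 (258.6) and SRXN1 (220.7) to PRDX6 (206.6). All neighbours in that order had separate ranges over the 3 libraries except TXNRD1 and PRDX4, whose ranges overlapped. In shPRSS22 TXNRD1 (624.6 ± 34.8 TPM, SD, n = 3) came second behind PRDX1 (2672 ± 112.3), with a range that overlapped that of PRDX5, and SRXN1 (480.2 ± 29.6) had rank 5, above PRDX3. PRDX4 and PRDX2 overlapped there.

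PRDX1 was a larger part of the peroxiredoxin transcripts in every knockdown library. It made up 52.1%, 52.2% and 53.1% of the summed PRDX1 to PRDX6 TPM in shCtrl and 61.6%, 60.3% and 62.8% in shPRSS22. The difference of 9.15 percentage points exceeded the spread of either group (exact two-sided permutation test, p = 0.1, also after adjustment over 6 genes, and the smallest p possible). The shares of the other 5 were all lower in every knockdown library, as shares that sum to a fixed total can be when 1 rises. The summed TPM of all 6 went from 3559 ± 94.4 to 4337 ± 94.7 (SD, n = 3), a ratio of 1.22, whereas the sum without PRDX1 was 1692 ± 30.3 and 1664 ± 20.9, with overlapping groups (exact permutation test, p = 0.2).

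**Figure D4:**
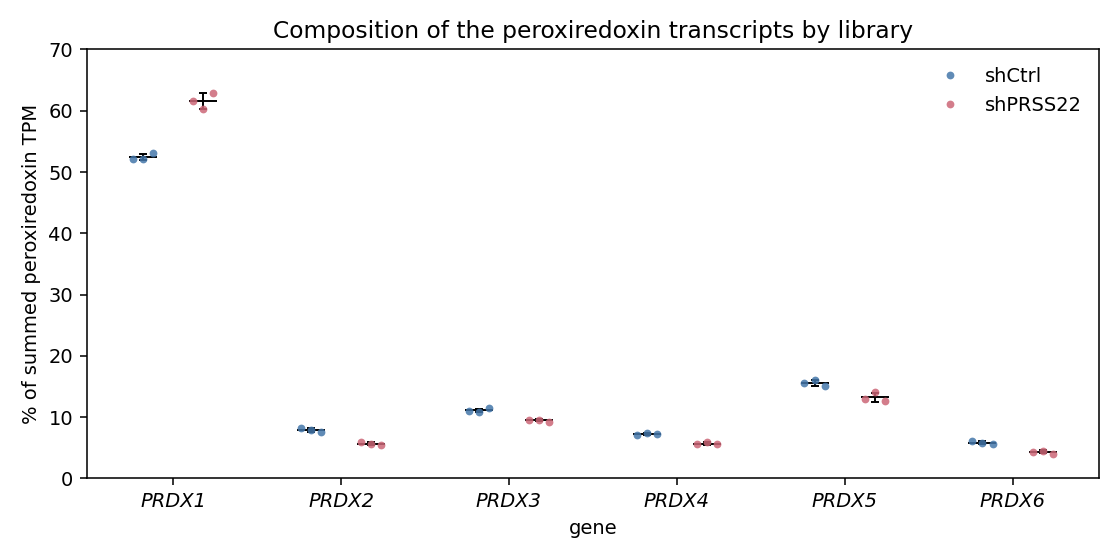
Percent of the summed peroxiredoxin TPM held by each of the 6 genes in each library; points are libraries, black marks the mean and SD of 3. PRDX1 holds 52.1% to 53.1% in shCtrl and 60.3% to 62.8% in shPRSS22.

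The ratio of sulfiredoxin to its substrates was higher in every knockdown library. The TPM ratio of SRXN1 to PRDX1 to PRDX4 together was 0.0814, 0.0776 and 0.0775 in shCtrl and 0.138, 0.129 and 0.136 in shPRSS22. The log2 ratio of counts differed by 0.79 between groups (exact two-sided permutation test, p = 0.1, the smallest possible). This ratio too follows from the levels of its genes given above.

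The regions around the starts of the members were searched for TGACNNNGC, the core of the antioxidant response element bound by NRF2, on both strands from 250 bases before to 50 after each start in RefSeq (GRCh38.p14). Of the 10 members 8 had such windows, 11 in all, and 2 of the 11 held a match, both at TXNRD1. In the table of 35116 windows 13.3% did. The upstream TXNRD1 window held matches from -99 to -91 and, on the opposite strand, from -8 to 0 relative to its start, and is not printed. The window of the downstream TXNRD1 start (chr12:104286782-104287081, plus strand) is printed because that gene differed most. The capitals mark the match, which reads on the opposite strand and lies from -102 to -94 relative to the start. Another motif searched in the same windows, CACGTG, matched 2 of the 11, at PRDX3 and PRDX4, and 7.26% of all windows. A match is a description of letters, and its absence elsewhere concerns these windows only. Members without a window were not searched, so a member given no match may not have been searched.
TXNRD1: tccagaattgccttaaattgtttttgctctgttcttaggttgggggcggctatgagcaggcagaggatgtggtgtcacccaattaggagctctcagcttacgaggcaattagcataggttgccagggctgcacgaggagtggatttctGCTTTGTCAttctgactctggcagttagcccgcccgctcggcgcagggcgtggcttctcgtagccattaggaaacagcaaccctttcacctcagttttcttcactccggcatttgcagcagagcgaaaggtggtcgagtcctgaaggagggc

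The genes whose pattern over the 6 libraries came closest to TXNRD1 and SRXN1 were sought among 11147 genes outside the group with a mean of at least 5 CPM. Likeness was the root mean square difference of log2 CPM after each gene's shCtrl mean was subtracted. Nearest to TXNRD1 were FSD1 (0.0246; log2 fold change 1.31), the collagenase MMP1 (0.0361; 1.36) and SPX (0.0690; 1.19). Nearest to SRXN1 were the drug and conjugate exporter ABCC2 (0.0196; 1.11), GCLM (0.0377; 1.11), the modifier subunit of the enzyme that starts glutathione synthesis, and the uridine phosphorylase UPP1 (0.0712; 1.05). TXNRD1 and SRXN1 were 0.108 apart. With 2 groups of 3, this measure mainly ranks genes by the size of the group difference.

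The wider pathway was read from 6 lists of other genes, in which 15 of 62 tested genes were higher and 14 lower, near the shares of all tested genes (19.9% higher and 19.3% lower), which also apply to the counts of each list below. DESeq2 called 11 higher and 7 lower, and without shCtrl replicate 2, 9 were lower. Of the 29 called genes 17 kept their call in all 11 alternative analyses.

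Of 18 tested thioredoxins and thioredoxin-like genes outside the group, 2 were higher, 4 were lower and 12 did not pass, near or below the share of all tested genes, with a median log2 fold change of 0.04. The mitochondrial partners did not pass: thioredoxin TXN2 had a log2 fold change of -0.17 (edgeR adjusted p = 0.190) and its reductase TXNRD2 one of 0.07 (0.706). The third reductase, TXNRD3, fell from 18.7 ± 0.470 to 13.8 ± 1.19 CPM (SD, n = 3; log2 fold change -0.44, edgeR adjusted p = 9.00e-05), opposite to TXNRD1. The membrane-bound TMX4 fell from 60.9 ± 4.35 to 41.9 ± 1.63 CPM (-0.54) and its relative TMX3 rose from 99.9 ± 4.68 to 119.9 ± 2.78 CPM (0.26). TXNL1, a proteasome-associated thioredoxin-like protein, had a log2 fold change of 0.10 and lost its call with DESeq2 (adjusted p = 0.106) and without shCtrl replicate 1 (0.177) or 2 (0.0580), or shPRSS22 replicate 2 (0.0816).

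Among 10 proteins that use or bind thioredoxin, 2 were higher and 2 lower (median 0.03), about the share of all tested genes. MAP3K5, the stress kinase ASK1 that reduced thioredoxin holds inactive, was at 44.7, 43.1 and 45.5 CPM in shCtrl and 31.5, 33.5 and 31.8 CPM in shPRSS22. The groups did not overlap, and the log2 fold change was -0.46 (SE 0.0556; edgeR adjusted p = 5.25e-08). Its relative MAP3K6 had a log2 fold change of -0.35 and lost its call with DESeq2 (adjusted p = 0.0662). RRM2B, a ribonucleotide reductase subunit, rose by 0.13. MSRB3, a methionine sulfoxide reductase, had a value of 0.20 and lost its call with DESeq2 (adjusted p = 0.133) and without shCtrl replicate 1 (0.141) or shPRSS22 replicate 3 (0.182), where its log2 fold change was 0.13.

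Of 11 tested glutaredoxins, glutathione peroxidases, catalase and superoxide dismutases, 2 were higher and 3 lower (median -0.02). The selenium enzymes GPX4, which removes lipid peroxides, and GPX1 fell, with log2 fold changes of -0.19 (edgeR adjusted p = 0.00104) and -0.17 (0.00371), opposite to the selenium enzyme TXNRD1. Cytosolic glutaredoxin, GLRX, rose by 0.16. GLRX2 had a log2 fold change of 0.29 and lost its call with DESeq2 (adjusted p = 0.103) and without shCtrl replicate 1 (0.107) or shPRSS22 replicate 3 (0.162), where its log2 fold change was 0.19. GPX2, the intestinal form, had too few counts to test: 3 in shPRSS22 replicate 1, the library that held the TXNIP reads, and 0 in the other 5.

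Of 9 tested genes that make selenoproteins, 1 was higher and 2 lower (median -0.11), about the share of all tested genes. SEPHS2, which makes the active selenium donor, rose from 235.3 ± 4.66 to 269.6 ± 4.27 CPM (SD, n = 3; log2 fold change 0.20, edgeR adjusted p = 1.49e-05). SEPSECS, which forms selenocysteine on its tRNA, had a value of -0.22 and lost its call with DESeq2 (adjusted p = 0.0826) and without shCtrl replicate 1 (0.0647) or shPRSS22 replicate 2 (0.131), where its log2 fold change was -0.14. SECISBP2, which recruits the decoding machinery to selenoprotein mRNAs, had one of -0.13 and lost its call with DESeq2 (0.0846) and without shCtrl replicate 1 (0.0722) or 2 (0.0597), or shPRSS22 replicate 1 (0.0846).

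The arrestin-like relatives of TXNIP and the glucose-sensing factors that control it formed a list of 8 genes, of which 7 were in the table. Unlike TXNIP, those 7 had counts in every library. Of the 7, 2 were higher and 3 lower (median -0.21). ARRDC4, which like TXNIP is a target of these glucose-sensing factors, was at 8.08, 6.60 and 8.99 CPM in shCtrl and 10.9, 8.87 and 11.6 CPM in shPRSS22. The groups overlapped by 1 library, and its log2 fold change of 0.41 (edgeR adjusted p = 0.00749) lost its call with DESeq2 (adjusted p = 0.0549) and without shCtrl replicate 2 (0.0792). MLX, the dimer partner of those factors, rose by 0.22 and ARRDC2 fell by 0.30. MLXIPL had a value of -0.24 and lost its call with DESeq2 (adjusted p = 0.0850) and without shCtrl replicate 1 (0.148) or 2 (0.130), or shPRSS22 replicate 2 (0.118) or 3 (0.174), and without the last its log2 fold change was -0.13.

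Of the 6 lists, NRF2 and its partners had the most calls in 1 direction: 6 of 7 were higher and 0 lower, with a median of 0.18. NFE2L2, which encodes NRF2, was at 221.6, 226.3 and 226.7 CPM in shCtrl and 249.1, 253.7 and 252.2 CPM in shPRSS22 (log2 fold change 0.16, edgeR adjusted p = 1.62e-04). KEAP1, which directs NRF2 to degradation, rose from 32.2 ± 1.74 to 42.7 ± 1.34 CPM (0.40) and MAFG, a small MAF partner of NRF2, from 96.6 ± 3.89 to 130.7 ± 3.01 CPM (0.44; SD, n = 3). These differences were all smaller than those of TXNRD1 and SRXN1. Because the list also holds KEAP1, the count of its genes called higher is not a measure of NRF2 activity, which was not tested. The list's direction was known from earlier results on these libraries and is not independent evidence.

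**Figure D5:**
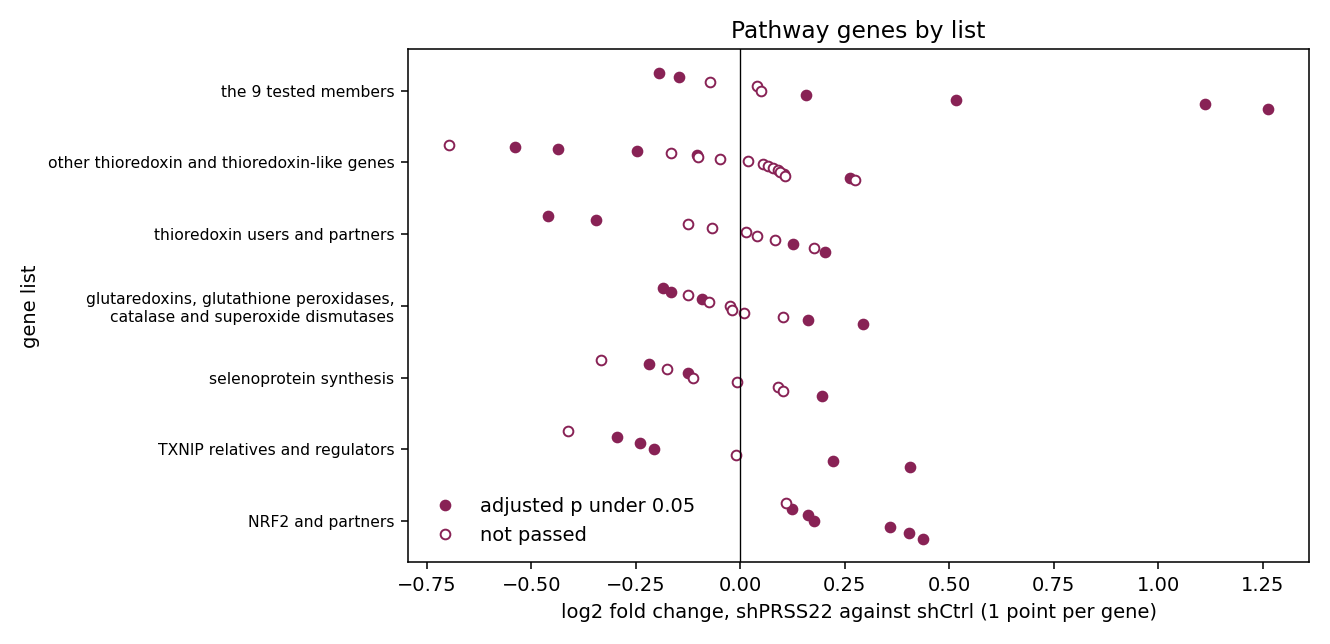
Log2 fold change of every tested gene (points) in the group and in the 6 lists; filled points passed the test. The lists spread to both sides of 0 except NRF2 and partners, where 6 of 7 genes were higher.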

How the data were processed

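Per the labels' protocols, poly(A) RNA was sequenced without a described strand mark. RSEM 1.3.1, HISAT2 2.2.1, R 4.3.1, DESeq2 1.4.5, Bowtie2 2.3.4.3 and FastQC 0.12.1 appear in the submitters' processing notes beside GRCh38.p13, without roles. The authors deposited estimated counts, FPKM, TPM and scaled counts (a signal) per library, and a log2 fold change with p-value and q-value, per the file headers. FPKM and scaled counts were not used. Estimated counts were rounded and tested with edgeR 4.0.16 (R 4.3.3; TMM scaling, filterByExpr, robust quasi-likelihood fit, two-sided, Benjamini-Hochberg over 13104 genes, threshold 0.05). SEs and 95% intervals were derived from the log2 fold change and the F statistic of that test. The code was tested on simulated data. Within-library ratios and TPM shares were compared by exact permutation. Alternatives were RLE size factors, DESeq2 1.42.0, other count filters, a replicate block and leaving out each library. RefSeq windows and GENCODE v29 transcripts gave sequences and 50-base overlaps. Besides the 10 genes, named genes were up to 2 called per list and direction at a mean of at least 1 CPM, a few fixed partners, and the 3 nearest in pattern, with markers and PRSS22 as checks; RRM2, ARRDC3, GPX2 and MMACHC were named after their values were seen. Members and lists were chosen with earlier results of these data known.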

Additional observations from a re-analysis of the deposited data

How the results depend on the processing

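In all 11 alternative analyses 4 members were higher and 2 lower, and the 6 called members kept direction and call. TXNRD1 ranged from 1.23 to 1.29 on the log2 scale, SRXN1 from 1.09 to 1.15, PRDX1 from 0.49 to 0.54, TXN from 0.13 to 0.18, PRDX2 from -0.21 to -0.18 and PRDX6 from -0.18 to -0.11. The edgeR adjusted p of TXNRD1 moved from 4.91e-23 to 5.03e-261 with no filter on low counts, so its size depends on the fit. PRDX5, not called, ran from -0.0072 (without shPRSS22 replicate 2) to 0.071 when 1 library was left out. DESeq2 called 1760 genes higher in place of 2603 and 1637 lower in place of 2523, and in the pathway lists 11 higher in place of 15 and 7 lower in place of 14; the cause was not tested. Leaving out 1 library gave 9 to 13 list genes lower, with fewer samples, and 2079 to 2271 genes lower over all. The differences in log2 ratio ran from 1.05 to 1.16 for TXNRD1 to TXN and from 0.77 to 0.82 for SRXN1 to its substrates when 1 library was left out. With the replicate number as a block, 2782 genes were higher and 2747 lower, and no call on a member changed. Same-numbered libraries correlated at 0.0357, 0.0501 and 0.104 in their deviations from the group means, and not every library correlated best with its own number, so the numbers were not taken to pair samples; for both ratios the paired sign-flip test gave an exact p of 0.25, its smallest. The planned ratio of TXNIP to TXN, and the genes nearest to TXNIP, were not run because TXNIP had 0 counts in 5 libraries.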

Other observations

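RRM2, the S-phase subunit of ribonucleotide reductase and a thioredoxin user, spread widely among the knockdown libraries: it was at 42.2 and 43.6 CPM in shPRSS22 replicates 1 and 2 but at 21.6 CPM in replicate 3, against 27.8 to 35.7 CPM in shCtrl. ARRDC3, an arrestin-like relative of TXNIP, was at 63.5 and 62.2 CPM in shPRSS22 replicates 1 and 2 and 44.3 CPM in replicate 3, all below the 67.7 to 81.7 CPM of shCtrl. Neither gene passed the test (edgeR adjusted p = 0.718 for RRM2 and 0.142 for ARRDC3). TXNRD1, SRXN1 and PRDX1 were in replicate 3 at 1339, 688.9 and 1105 CPM, the highest of the 3 knockdown libraries for each. The other called members, TXN, PRDX2 and PRDX6, were there at 132.2, 92.6 and 153.3 CPM, the lowest of the 3 for each. This is 1 library, and the share of all tested genes at an extreme there was not counted.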
